A study of Mus musculus with 8 samples.

Results

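*Cxcl9*, *Cxcl10* and *Cxcl11* encode 3 interferon-induced chemokines that share the receptor CXCR3. Their transcripts were followed in macrophages grown from bone marrow (BMDM), with LPS alone or LPS plus IL-10, from mice with and without miR-155. They are represented by every probe set that carries 1 of these 3 symbols and no other, which gave 5 of the 45101 probe sets on the array and 3 of 18194 genes. *Cxcl9* had 2 (1418652_at and 1456907_at), *Cxcl10* had 1 (1418930_at) and *Cxcl11* had 2 (1419697_at and 1419698_at). For *Cxcl9* and *Cxcl11* the first is the brighter and is meant unless the second is named.

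The 8 arrays held 4 groups of 2, named WT(LPS), WT(LPS + IL-10), *miR-155*-/-(LPS) and *miR-155*-/-(LPS + IL-10). Marrow came from 2 C57Bl/6 wild type (WT) mice and 2 miR-155 knockout mice, was frozen, and after thawing was grown for 7 days in 15% conditioned medium of the L929 fibroblast line, a source of M-CSF. All cells received LPS (100 ng/ml) for 24 h, and those of the IL-10 groups received IL-10 (20 ng/ml) 5 min before it, so that each mouse gave 1 array without and 1 with IL-10. No array of unstimulated cells, or of cells given IL-10 or interferon alone, was analysed here, so the induction of the chemokines by LPS or interferon was not measured. By the methods of the study the knockout, like the WT, was on C57BL6/J and marrow for BMDM came from adult female littermates. The array labels differ from this and give the WT mice as female and the *miR-155*-/- mice as male. Y-linked genes and *Xist*, 23 probe sets, were left out of the fits below. Keeping them raised the calls between genotypes from 659 to 667 under LPS and from 32 to 43 under LPS and IL-10. The calls for IL-10 stayed at 14 in WT and 1206 in *miR-155*-/- BMDM. Genotype and sex are therefore not told apart here. These are bulk samples, in which fewer cells of a type and less RNA per cell cannot be told apart.

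The chemokines are small secreted proteins that draw activated T cells and NK cells, the main carriers of CXCR3, to sites of inflammation. In macrophages, LPS acts through TLR4 and the adaptor TRIF to produce interferon-beta, which returns to the same cells through the interferon receptor and the JAK kinases and switches on genes whose promoters hold interferon-stimulated response elements (ISRE). *Cxcl10* responds to this loop and to NF-kappaB, and *Cxcl9* is best known as a target of interferon-gamma. IL-10 restrains much of the LPS response through STAT3 and lowers miR-155, a microRNA that LPS induces and that represses regulators of cytokine signalling.

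The 3 genes lie side by side on the minus strand of mouse chromosome 5 within 42.0 kb, *Cxcl9* at chr5:92321331-92328079, *Cxcl10* at chr5:92346638-92348889 and *Cxcl11* at chr5:92359544-92363296 (RefSeq, GRCm38.p6). RefSeq annotates *Cxcl9* and *Cxcl10* as protein-coding and *Cxcl11* as a transcribed pseudogene. The C57BL/6 allele of *Cxcl11* is known to carry a frameshift, so its values are those of a transcript. Shown are the 250 bases before the start of *Cxcl9* (chr5:92328080-92328329) and of *Cxcl10* (chr5:92348890-92349139), since these promoters belong to the genes compared. Also shown is the mature miR-155-5p (chr16:84714143-84714165, plus strand), since it is a product of *Mir155*, the gene that the knockout lacks. They are from RefSeq, GRCm38.p6, 5′ to 3′ on the strand of the gene. Capitals mark motif matches in the promoters and the seed, bases 2 to 8, in the microRNA.
Cxcl9 promoter: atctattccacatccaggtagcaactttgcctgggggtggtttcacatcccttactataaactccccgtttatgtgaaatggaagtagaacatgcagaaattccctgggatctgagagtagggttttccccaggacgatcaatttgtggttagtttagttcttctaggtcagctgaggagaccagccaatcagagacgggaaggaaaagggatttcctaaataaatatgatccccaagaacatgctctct
Cxcl10 promoter: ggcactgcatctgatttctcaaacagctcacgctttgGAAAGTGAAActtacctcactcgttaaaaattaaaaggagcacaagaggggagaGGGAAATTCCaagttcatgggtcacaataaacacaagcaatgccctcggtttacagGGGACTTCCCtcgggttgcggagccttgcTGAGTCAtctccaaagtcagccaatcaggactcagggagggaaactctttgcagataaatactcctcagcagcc
miR-155-5p: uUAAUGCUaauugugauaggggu

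The motifs searched, on both strands, were the ISRE core (GAAANNGAAA), the interferon-gamma activated site (GAS, TTCNNNGAA), the NF-kappaB site and the AP-1 site (TGANTCA). The *Cxcl10* promoter held an ISRE core, GAAAGTGAAA, at -213 to -204 from the start and NF-kappaB matches, GGGAAATTCC at -159 to -150 and GGGACTTCCC at -103 to -94. It also held an AP-1 match, TGAGTCA, at -74 to -68, and none of these overlap. The *Cxcl9* promoter held no match to these letters in this window. Of 32851 promoter sequences of this length, 2.98% held the ISRE core, 7.02% the GAS letters, 3.90% an NF-kappaB match and 6.75% an AP-1 match. A match describes the sequence and is no evidence of binding.

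All values are log2 intensities after RMA, and each probe set is compared only with itself across arrays. To show where a signal cannot fall further, the 95th percentile of 87 probe sets for olfactory, taste and other sensory receptors was taken on each array as the background level, which was 2.96 to 3.41. Of the 40 chemokine values, 22 lay above it. *Cxcl9* and *Cxcl10* were above it on all 8 arrays, *Cxcl11* and the second *Cxcl9* probe set on 3 arrays each, and the second *Cxcl11* probe set on none.

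*Cxcl10* was at 8.46 and 8.79 in the 2 WT mice with LPS alone, and at 6.14 and 6.40 in the same mice when IL-10 was added. The 2 *miR-155*-/- mice gave 12.35 and 11.68 with LPS alone, and 8.89 and 8.09 with IL-10. Both *miR-155*-/-(LPS) arrays stood above all others and both WT(LPS + IL-10) arrays below all others, while WT(LPS) and *miR-155*-/-(LPS + IL-10) overlapped.

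*Cxcl9* showed the same order. WT mice gave 5.78 and 6.43 with LPS, against 5.27 and 4.98 with LPS and IL-10. *miR-155*-/- mice gave 9.78 and 8.92 with LPS, against 6.16 and 6.37 with LPS and IL-10. The range of WT(LPS) enclosed that of *miR-155*-/-(LPS + IL-10), and no other groups overlapped.

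*Cxcl11* was clearly above the background level in 1 group, *miR-155*-/-(LPS), at 9.05 and 8.20. WT mice gave 2.81 and 3.56 with LPS, of which only the second exceeded the background level of its array. With IL-10 the WT mice gave 2.50 and 2.63 and the *miR-155*-/- mice 2.75 and 2.77, and none of these 4 values was above background. Differences of *Cxcl11* among these 3 groups are limited by the floor of the array.

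**Figure D1:**
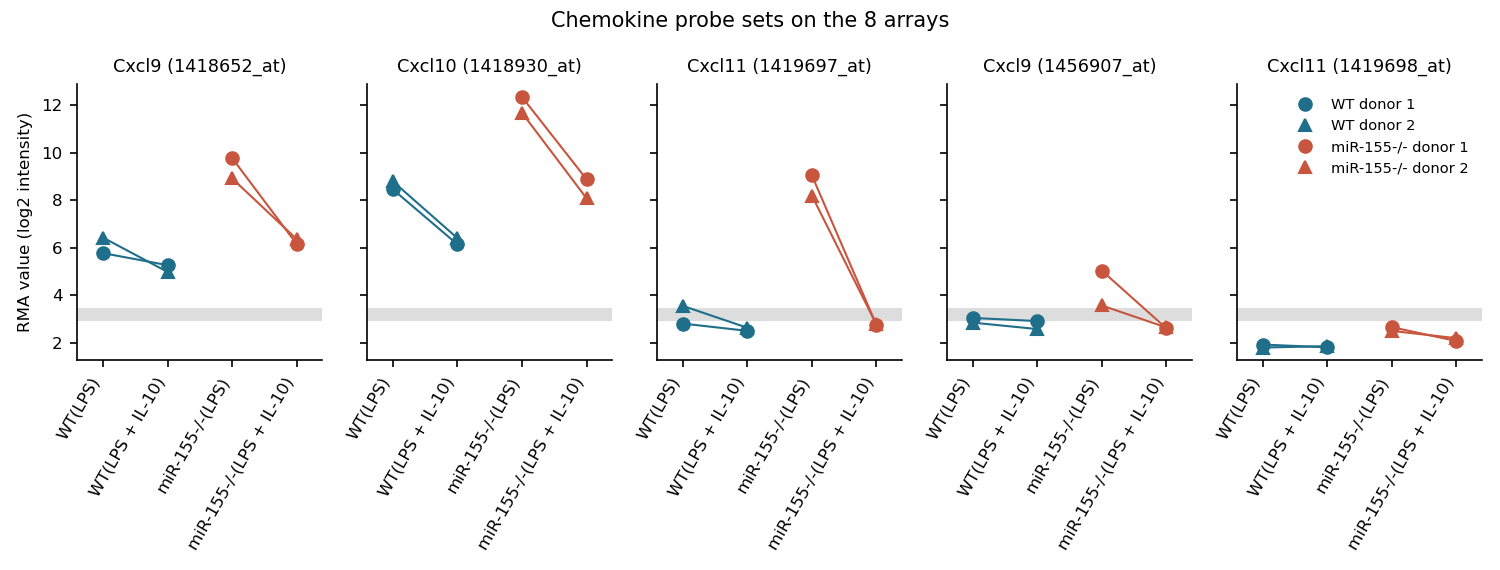
Log2 RMA value of each chemokine probe set (vertical axis) on the 8 arrays, by group (horizontal axis), with lines joining the 2 arrays of one mouse (donor) and the grey band giving the range of the background level, 2.96 to 3.41. *Cxcl10* spans 6.14 to 12.35 and stays above the band, *Cxcl11* leaves it clearly only in *miR-155*-/-(LPS), and the second *Cxcl11* probe set lies under it throughout.

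The first comparison asked what IL-10 did to the chemokines in WT BMDM. *Cxcl10* was 5.11-fold lower in WT(LPS + IL-10) than in WT(LPS) and *Cxcl9* 1.97-fold lower, each lower in both mice, but neither passed the test. The log2 fold change of *Cxcl10* was -2.35 (SE 0.26, 95% confidence interval -2.96 to -1.75, unadjusted p = 3.52e-05, adjusted p = 0.0604, limma). That of *Cxcl9* was -0.98 (SE 0.31, -1.70 to -0.26, unadjusted p = 0.0148, adjusted p = 0.427). By mouse, *Cxcl10* was 4.97-fold and 5.24-fold lower with IL-10, and *Cxcl9* 1.42-fold and 2.72-fold. *Cxcl11* differed by -0.61 (adjusted p = 0.562), which gives no bound because the WT(LPS) signal was itself at the floor. At an adjusted p under 0.05 none of the 5 probe sets was called, where 0.0222% of the 45014 tested were called lower. *Cxcl9* and *Cxcl10* had an unadjusted p under 0.05. By the selection in the methods of the study, which asks for that and for a log2 change above 1 in size, *Cxcl10* was selected, as were 0.355% of all probe sets in the lower direction. By size of change *Cxcl10* ranked 13 among the 45014 and *Cxcl9* 354. The adjusted p of *Cxcl10* ran from 0.0047 to 0.564 over 18 alternative settings and passed in 4 of them.

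The second comparison asked how the chemokines differed without miR-155 under LPS alone. All 3 genes were higher in *miR-155*-/-(LPS) and passed the test. *Cxcl10* was 10.5-fold higher (log2 fold change 3.39, SE 0.29, 95% confidence interval 2.70 to 4.08, adjusted p = 0.00607). *Cxcl9* was 9.49-fold higher (3.25, SE 0.35, 2.42 to 4.07, adjusted p = 0.0119). *Cxcl11* was 43.4-fold higher (5.44, SE 0.33, 4.66 to 6.21, adjusted p = 0.00178), from a WT(LPS) mean of 3.18. Of the 2 WT(LPS) arrays 1 (2.81) was not above its background level (2.98), so the size of this fold and its rank rest on a value at the floor. Of all 45014 probe sets, *Cxcl11* ranked 5 by size of change, *Cxcl10* 59 and *Cxcl9* 73. Of the 5 chemokine probe sets 3 were called higher, where 0.951% of all tested were. With each of the 8 arrays left out in turn, *Cxcl11* passed every time (adjusted p up to 0.0194), and *Cxcl9* and *Cxcl10* passed 6 of 8 times. Without WT(LPS) replicate 1 or *miR-155*-/-(LPS) replicate 1, only *Cxcl11* was called (highest adjusted p 0.0818 for *Cxcl9* and 0.0613 for *Cxcl10*). The WT(LPS) arrays serve both this comparison and the first.

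The third comparison gave the IL-10 effect in *miR-155*-/- BMDM, in which all 3 chemokines fell. *Cxcl10* fell 11.5-fold (log2 fold change -3.53, SE 0.26, 95% confidence interval -4.13 to -2.92, adjusted p = 0.00251). *Cxcl9* fell 8.49-fold (-3.09, SE 0.31, -3.80 to -2.37, adjusted p = 0.00547). *Cxcl11* fell to the floor (measured log2 fold change -5.86, SE 0.29, -6.53 to -5.18, adjusted p = 0.00134). By the group means this was at least 46.8-fold. That bound sets the *miR-155*-/-(LPS) mean against the lowest signal counted as above background, and it carries no spread. By mouse, *Cxcl10* was 11.0-fold and 12.1-fold lower with IL-10 and *Cxcl9* 12.2-fold and 5.88-fold. The measured *Cxcl11* values were 78.4-fold and 42.9-fold lower, so the second mouse lay under the bound of the group means. *Cxcl11* ranked 2 by size of change among all probe sets, *Cxcl10* 18 and *Cxcl9* 41. Of the 5 chemokine probe sets 3 were called lower, where 1.42% of all tested were. *Cxcl10* and *Cxcl11* passed without each array in turn (adjusted p up to 0.0336 and 0.0262), and *Cxcl9* passed 6 of 8 times (up to 0.0571, without *miR-155*-/-(LPS + IL-10) replicate 1).

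The fourth comparison set the genotypes side by side under LPS and IL-10. *Cxcl10* was 4.64-fold higher in *miR-155*-/-(LPS + IL-10) than in WT(LPS + IL-10), with no overlap, and did not pass the test (log2 fold change 2.22, 95% confidence interval 1.52 to 2.91, unadjusted p = 0.000126, adjusted p = 0.0776). *Cxcl9* was 2.20-fold higher, also with no overlap (1.14, 0.31 to 1.96, adjusted p = 0.404), and *Cxcl11* was not above background in either group. None of the 5 probe sets was called, where 0.0378% of all tested were called higher. *Cxcl9* and *Cxcl10* met the selection of the methods, as did 0.671% of all probe sets in the higher direction. In a comparison added after the values were seen, *miR-155*-/-(LPS + IL-10) was set against WT(LPS), its neighbour in the order of levels. The log2 difference was 0.16 for *Cxcl9* (95% confidence interval -0.66 to 0.99) and -0.14 for *Cxcl10* (-0.83 to 0.56), so these neighbours did not differ beyond their spread.

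The last comparison tested whether the IL-10 effect itself differed between genotypes, as the *miR-155*-/- log2 fold change minus that of WT. It was -2.11 for *Cxcl9* (SE 0.43, 95% confidence interval -3.13 to -1.09, unadjusted p = 0.00173, adjusted p = 0.276) and -1.17 for *Cxcl10* (SE 0.36, -2.03 to -0.32, adjusted p = 0.395), and neither passed. For *Cxcl11* it was -5.24 (SE 0.40, -6.20 to -4.29, adjusted p = 0.0292), which ranked 1 by size among the 45014. With WT(LPS) at the floor, a fall of *Cxcl11* in WT could not be measured, and the call was lost without each of the 8 arrays in turn (adjusted p up to 0.234). Of the 5 chemokine probe sets 1 was called, where 0.0333% of all tested were called in the negative direction. By the selection of the methods 4 of the 5 were selected, where 0.982% of all were in the negative direction. The 4 include the second *Cxcl9* probe set (-1.47), whose values in WT(LPS), 3.05 and 2.85, were near the background level. As for *Cxcl11*, its fall in WT could not be measured.

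**Figure D2:**
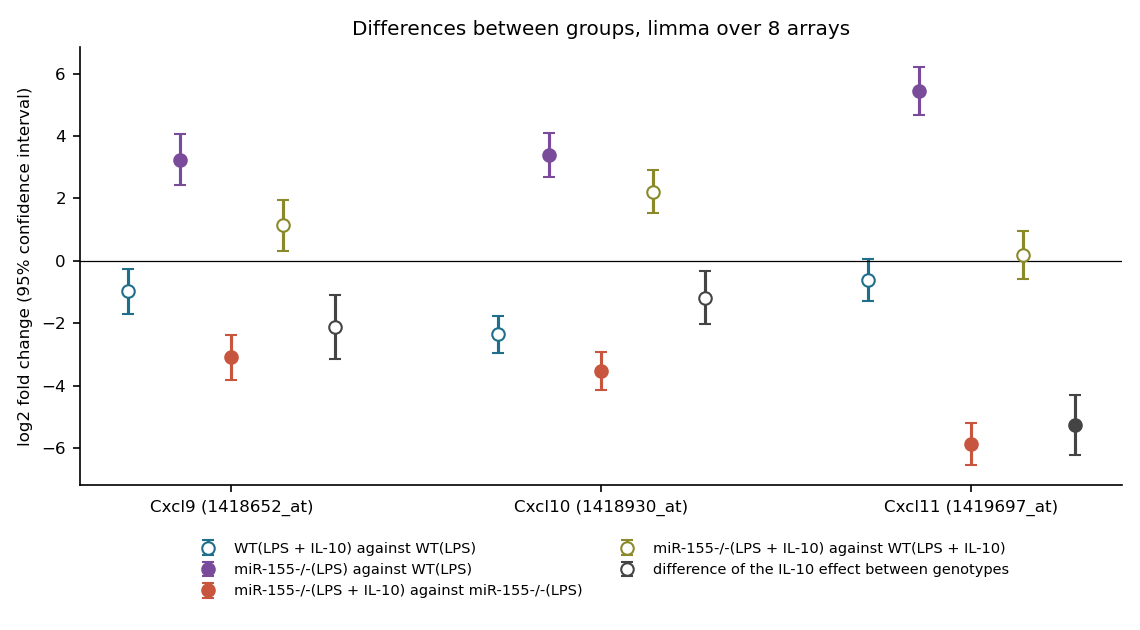
Log2 fold change (vertical axis) with its 95% confidence interval for the brighter probe set of each chemokine (horizontal axis) in the 5 comparisons, from limma over 8 arrays, with filled points at an adjusted p under 0.05. The rise in *miR-155*-/-(LPS) and the fall with IL-10 in *miR-155*-/- BMDM are filled for all 3 chemokines, and the IL-10 effect in WT for none.

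The second probe sets were dimmer. The second *Cxcl9* probe set (1456907_at) gave 3.05 and 2.85 for the WT mice with LPS and 2.92 and 2.58 with IL-10. For the *miR-155*-/- mice it gave 5.04 and 3.57 with LPS and 2.61 and 2.65 with IL-10. Only *miR-155*-/-(LPS) was above background on both arrays, and its 2 values lay far apart. Its log2 fold change was 1.36 in *miR-155*-/-(LPS) against WT(LPS) (adjusted p = 0.222) and -1.67 with IL-10 in *miR-155*-/- BMDM (adjusted p = 0.0734). The latter was a bound of at least 2.35-fold by the group means, with measured falls of 5.37-fold and 1.90-fold by mouse. The second *Cxcl11* probe set (1419698_at) ranged from 1.80 to 2.66 and was never above background, with its highest values in *miR-155*-/-(LPS). The 2 probe sets of *Cxcl11* had the same sign in all 5 comparisons. Those of *Cxcl9* did in 4, the exception being *miR-155*-/-(LPS + IL-10) against WT(LPS + IL-10), where the second was under background in both groups.

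1 WT mouse stood apart from the others by markers of fibroblasts and stroma. The median of 13 such markers was 10.06 and 10.13 on the arrays of WT mouse 1 and 3.26 to 5.14 on the other 6 arrays. Without both arrays of this mouse each WT group is a single array, which the fit assumes to vary like the other groups. The log2 fold change in *miR-155*-/-(LPS) was then 3.22 for *Cxcl10* (adjusted p = 0.0432), 5.07 for *Cxcl11* (adjusted p = 0.0140) and 2.92 for *Cxcl9* (adjusted p = 0.0578). *Cxcl9* was the chemokine that no longer passed. The IL-10 effect in the remaining WT mouse was -2.39 for *Cxcl10*, -1.45 for *Cxcl9* and -0.92 for *Cxcl11*, and the genotypes then differed in it by -1.64 for *Cxcl9*, -1.14 for *Cxcl10* and -4.94 for *Cxcl11* (adjusted p = 0.158).

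Markers of other cells also differed between groups or between mice. The macrophage markers *Adgre1*, *Csf1r* and *Lyz2* were high on all arrays, and the median of 10 such markers was 12.61 to 12.82. Of these 10, *Mrc1*, a mannose receptor, was lower in *miR-155*-/-(LPS) (-2.71) and higher with IL-10 in *miR-155*-/- BMDM (2.68). *Mertk* lay at 8.03 to 8.53 on the *miR-155*-/- arrays and at 9.06 to 9.52 on the WT arrays. The summed log2 value of the macrophage list was lowest on the *miR-155*-/-(LPS) arrays, 116.9 and 117.5, against 119.9 to 122.1 on the others. Of 10 neutrophil markers 4 were lower in *miR-155*-/-(LPS), where 0.513% of all probe sets were, and 2 in *miR-155*-/-(LPS + IL-10) against WT(LPS + IL-10), where 0.0333% were. With IL-10 in *miR-155*-/- BMDM, where the chemokines fell, *S100a8* was the 1 neutrophil marker called, at 10.82 and 11.00 without and 12.41 and 12.59 with IL-10 (1.59, adjusted p = 0.00261), and the call held without each array in turn. The summed log2 value of that list was 58.2 to 61.5 on the WT arrays and 48.1 to 51.1 on the *miR-155*-/- arrays. *Mpo* and *Elane*, which define immature neutrophils, were under background on all arrays, and the part of the other markers in the chemokine values was not tested. Of 12 T and NK cell markers *Ncr1*, *Klrd1*, *Gzma* and *Eomes* were under background on every array, and *Cd28* was lower in *miR-155*-/-(LPS) (-2.79) and higher with IL-10 in *miR-155*-/- BMDM (1.71). *Cd3e* was above background on 3 WT arrays and on no *miR-155*-/- array. The summed log2 value of the T and NK cell list was 49.3 and 47.5 on the arrays of WT mouse 2. On all other arrays, those of WT mouse 1 included, it was 41.0 to 43.3. Of the 13 stromal markers 12 had a negative log2 fold change in *miR-155*-/-(LPS) (list median -2.63), none of them called, and *Lum* alone was positive and called (2.57). Under LPS alone the median log2 value of this list was 10.06 in WT mouse 1 and 4.49 in WT mouse 2. It was 3.51 and 5.14 in the *miR-155*-/- mice, so WT mouse 2 lay between them. *Blnk* was the 1 of 6 B cell markers called, lower with IL-10 in *miR-155*-/- BMDM (-1.37). Of 8 dendritic cell and 7 endothelial markers 0 were called, with an unadjusted p under 0.05 for 2 of each list in *miR-155*-/-(LPS).

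Over the 8 arrays the 3 genes varied together, at a Pearson r of 0.965 between *Cxcl9* and *Cxcl10*, 0.970 between *Cxcl9* and *Cxcl11* and 0.914 between *Cxcl10* and *Cxcl11*. These describe 4 groups of 2 arrays, in which *miR-155*-/-(LPS) stands far from the rest. The genes most like each chemokine were looked for among 693 with a mean of at least 6 and an SD of at least 0.5, and so were picked for this pattern. *Cxcl9* was most like the interferon-inducible GTPases *Gbp3* (r = 0.990) and *Ifi47* (r = 0.988), followed by *Gm13012* (r = 0.988), the TNF receptor adaptor *Traf1* (r = 0.987) and *Slco3a1* (r = 0.984). *Cxcl10* was most like *Lmo4* (r = 0.997), *Stat2*, a subunit of the complex that binds the ISRE (r = 0.992), *Oasl1* (r = 0.990), *Tnf* (r = 0.990) and *Oas1b* (r = 0.989). *Cxcl11* was most like *Slc7a2*, a transporter of arginine (r = 0.986), *1700029I15Rik* (r = 0.982), *Zmynd15* (r = 0.978), *Traf1* (r = 0.977) and *Ifit1bl1* (r = 0.976).

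**Figure D3:**
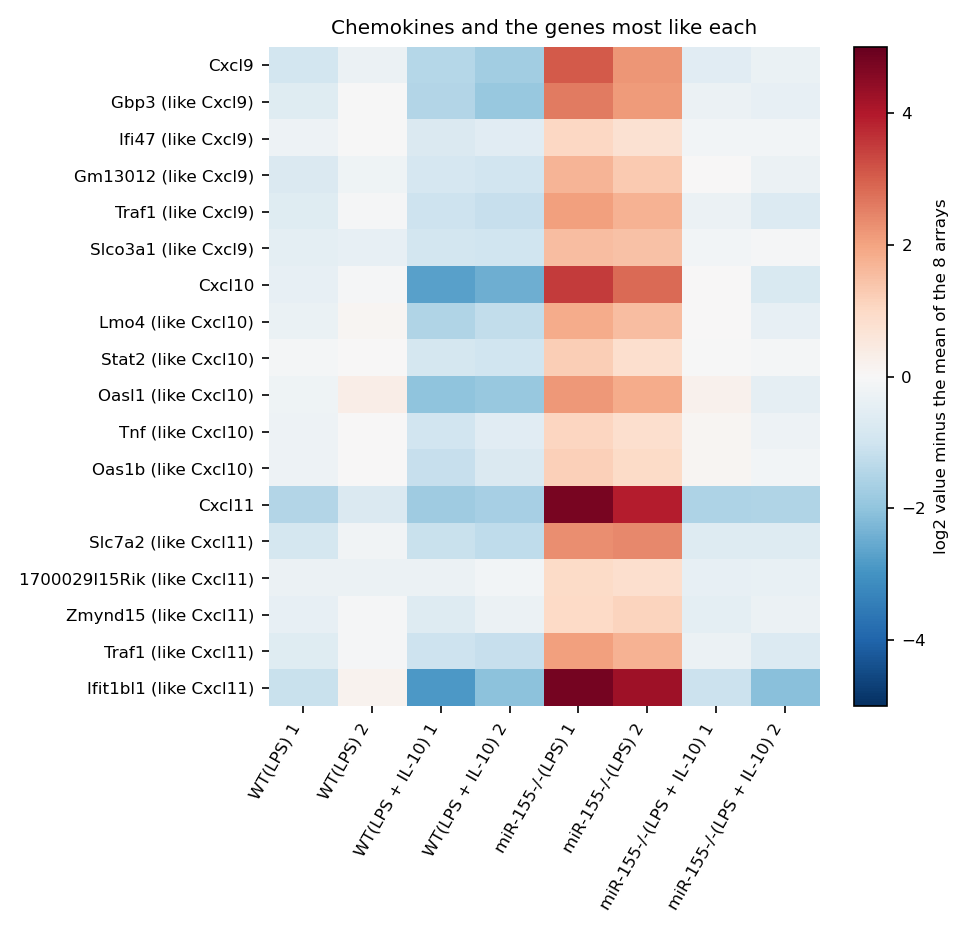
Log2 value minus the mean of the 8 arrays (colour) for each chemokine and the 5 genes most like it (rows) on the 8 arrays (columns, by group and replicate). Every gene shown is highest on the 2 *miR-155*-/-(LPS) arrays, and *Cxcl10* and the genes most like it are lowest on the WT(LPS + IL-10) arrays.

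The rest of the pathway was described by lists, with 1 probe set per gene. Of 5 genes for receptors and processing of the chemokines 0 were called in any comparison. *Cxcr3* was at 3.58 to 4.24 on all arrays, near the background level. The decoy receptor *Ackr3* was under background throughout, and *Dpp4*, a protease that clips these chemokines, was above it on 5 arrays. Of 7 interferon ligands 0 were called and 4 were under background on every array, *Ifng* among them, while *Ifnb1*, which encodes interferon-beta, lay at 2.80 to 3.47, near the background level. Of 5 interferon receptors, *Ifnar1* and *Ifngr1* included, and of 6 genes from the LPS receptor to interferon-beta, *Tlr4* and *Ticam1* (TRIF) included, 0 were called. Of 9 negative regulators of interferon signalling 0 were called, and the log2 fold change in *miR-155*-/-(LPS) was 0.58 for *Socs1*, 0.42 for *Socs3* and 0.96 for *Usp18*. *Socs1* lay at 3.28 to 4.28, near the background level, so its change is limited by the floor. At an unadjusted p under 0.05 these 5 lists, in this order, had 0, 0, 0, 3 and 4 genes in *miR-155*-/-(LPS) against WT(LPS), and 1, 0, 2, 4 and 2 with IL-10 in *miR-155*-/- BMDM. The share of all probe sets at that threshold was not taken.

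Closer to the promoters, 3 of 11 JAK and IRF genes rose in *miR-155*-/-(LPS) and 4 fell with IL-10 in *miR-155*-/- BMDM. Over all probe sets 0.951% were called higher in the former and 1.42% lower in the latter, which holds for each list below. The list median was 0.28 and -0.51, against 0.02 and 0.01 over all probe sets. *Jak2*, *Irf7* and *Stat2* rose by 1.27, 1.24 and 1.10. With IL-10 in *miR-155*-/- BMDM *Irf7* changed by -1.26, *Stat2* by -1.10, *Jak2* by -0.86 and *Tyk2* by -0.80. *Irf1* (0.73), *Irf9* (0.28) and *Irf8* (-0.40) did not pass in *miR-155*-/-(LPS). Of 10 NF-kappaB genes 2 rose in *miR-155*-/-(LPS), the subunit *Rel* (1.21) and the inhibitor *Nfkbib* (1.04), and 3 fell with IL-10 in *miR-155*-/- BMDM, *Rel* (-1.20), *Nfkbib* (-0.97) and the inhibitor *Nfkbie* (-0.92). All 10 had a positive log2 fold change in *miR-155*-/-(LPS) (median 0.60), each with an unadjusted p below 0.05. All 10 were negative with IL-10 in *miR-155*-/- BMDM (median -0.47), 7 of them with an unadjusted p below 0.05. The share of all probe sets at this unadjusted threshold was not taken, so these counts have no background beside them. Of 8 genes of the IL-10 signal, *Il10ra* rose in *miR-155*-/-(LPS) (0.85) and fell with IL-10 in *miR-155*-/- BMDM (-1.02), where *Sbno2* (1.22), *Nfil3* (1.21) and *Etv3* (0.60) rose, as did 1.26% of all probe sets. *Stat3* and *Il10* were not called. Each of these calls was lost without 1 or more of the 8 arrays.

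Of 16 other interferon-induced genes, 1 fell with IL-10 in WT (*Ifit1*, -1.78), 4 rose in *miR-155*-/-(LPS) and 6 fell with IL-10 in *miR-155*-/- BMDM. The shares over all probe sets were 0.0222%, 0.951% and 1.42%, and the list medians -0.58, 0.74 and -0.66. The rises were those of *Isg20* (2.80), *Mx1* (2.50), *Gbp2* (2.20) and *Ifit1* (1.13), and the largest falls those of *Ifit2* (-2.80), *Isg20* (-2.78), *Gbp2* (-2.52) and *Mx1* (-2.52). The fall of *Isg20* in *miR-155*-/- BMDM was the 1 call here that held without each array in turn. Of 12 other CXC chemokines, *Cxcl1* fell with IL-10 in *miR-155*-/- BMDM (-1.93, adjusted p = 0.0431, up to 0.249 with an array left out) and none else was called. Their median was -0.22 in *miR-155*-/-(LPS) and -0.06 with IL-10 in *miR-155*-/- BMDM.

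**Figure D4:**
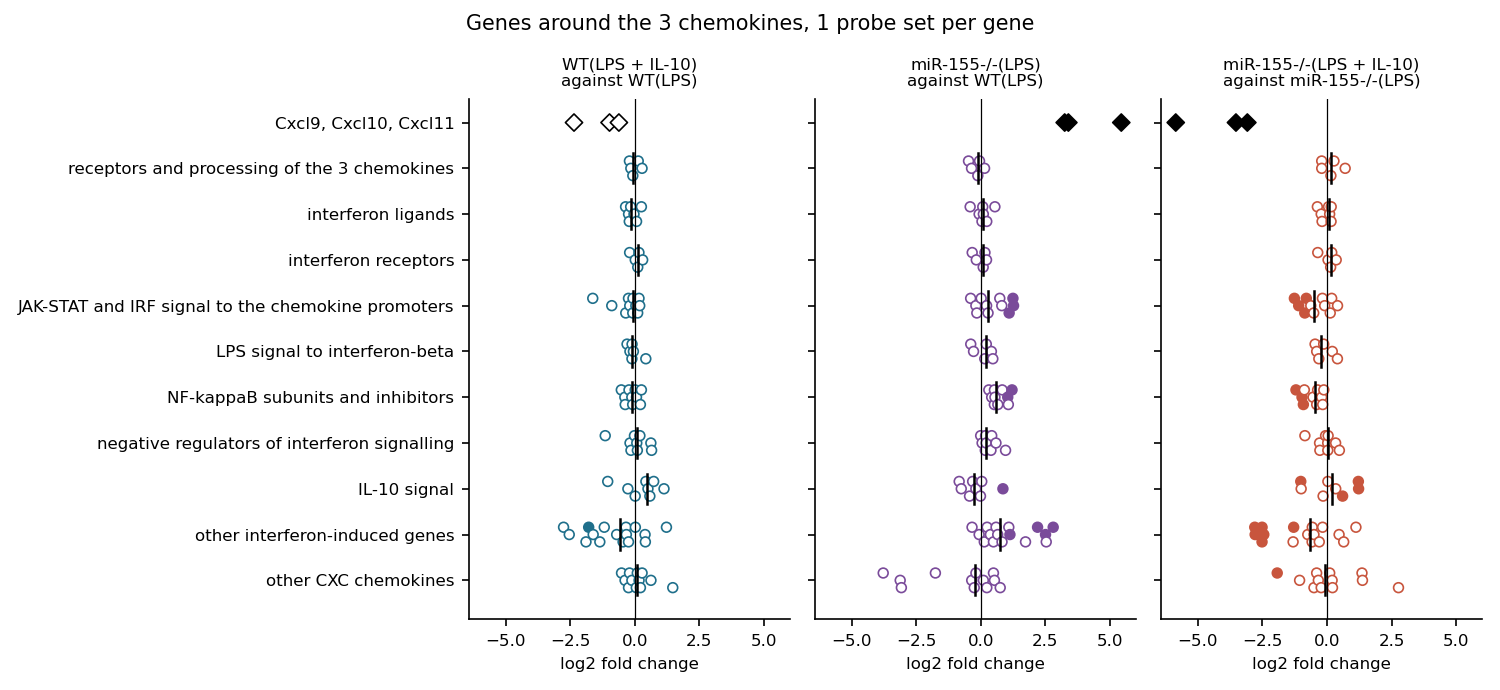
Log2 fold change (horizontal axis) of the 3 chemokines (diamonds) and of each gene in 10 lists (rows, circles) in 3 comparisons, filled at an adjusted p under 0.05, with a vertical bar at the list median. The 3 chemokines lie further right than every listed gene in *miR-155*-/-(LPS) and further left than every one with IL-10 in *miR-155*-/- BMDM, and the interferon ligands and receptors lie around 0.

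Of the genes around the cluster, 5 on each side and *Art3*, which overlaps *Cxcl10* and *Cxcl11*, 0 of 11 were called in *miR-155*-/-(LPS) against WT(LPS). Of these, *Ppef2* (1.41, adjusted p = 0.0888) and *Scarb2* (-0.41, adjusted p = 0.301) had an unadjusted p under 0.05. *Art3* was under background on all arrays. The nearest genes on either side, *Sdad1* next to *Cxcl9* and *Nup54* beyond *Cxcl11*, had log2 fold changes of -0.01 and 0.14 there, against 3.25 for *Cxcl9* and 5.44 for *Cxcl11*. With IL-10 in *miR-155*-/- BMDM 2 of the 11 were called. *Naaa* rose by 1.29 (adjusted p = 0.00733, up to 0.0884 with an array left out), and *Ppef2* fell by 1.41 (adjusted p = 0.0463, up to 0.264), at a signal above background on 4 arrays.

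**Figure D5:**
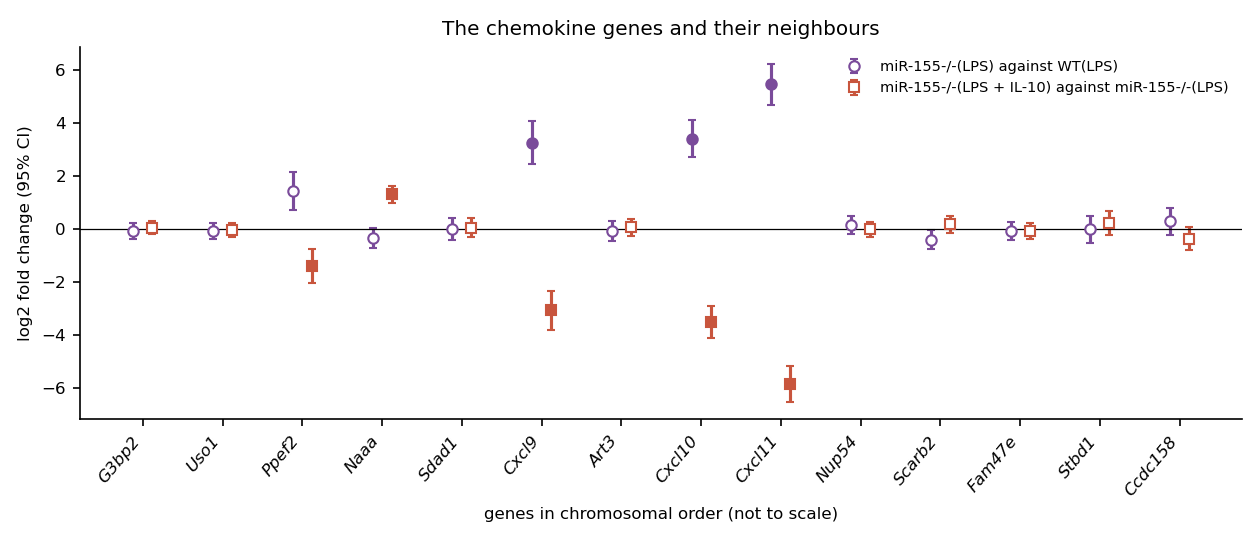
Log2 fold change with its 95% confidence interval (vertical axis) for the chemokine genes and their neighbours in chromosomal order (horizontal axis, not to scale) in 2 comparisons, filled at an adjusted p under 0.05. The 3 chemokines stand at 3.25 to 5.44 in one and at -3.09 to -5.86 in the other, while *Sdad1* and *Nup54* lie near 0.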

How the data were processed

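RNA of 8 BMDM cultures was amplified, labelled and hybridised to Affymetrix mouse genome arrays. The authors computed the deposited log2 intensities with RMA in the affy package (background correction, quantile normalization, 1 value per probe set). No version of affy is stated in the labels or methods. Symbols came from the array annotation: 34958 probe sets had 1 symbol, 932 several and 9211 none, and the Entrez ID of 34754 of the 34958 was found in RefSeq. Leaving out 64 controls and 23 sex-linked probe sets, 45014 were tested.

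limma 3.58.1 in R 4.3.3 (lmFit, eBayes) used all 8 arrays and took the mouse as a random block (duplicateCorrelation, correlation 0.240), two-sided, with Benjamini-Hochberg adjustment over all 45014. The 2 arrays of a mouse were paired by the genotype and replicate labels. Their deviations from the group means correlated at 0.754 in WT and 0.230 in knockout mice. The small number of arrays, 2 a group, limits the precision. In a test on simulated data for *miR-155*-/-(LPS) against WT(LPS), 23, 48, 47 and 49 of 50 changed probe sets were recovered at log2 changes of 1, 2, 3 and 4.

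A gene outside the cluster was represented by its probe set with the highest mean. Named genes were all chemokine probe sets, up to 4 called genes per list and comparison, a set of key regulators, the 5 most alike genes, and the neighbours. The members and lists were chosen with earlier results of these data known. A fold against a group under background on both arrays is given as a bound, taken from the group means and without a spread. A group left with 1 array was assumed to vary like the others. Alternatives were other blocks, only the arrays compared, a filter at a mean of 6, an intensity trend with robust fitting, other scalings, sex-linked probe sets kept, other background levels and arrays left out. Plots were drawn with matplotlib 3.10.9. Listed genes without a probe set of their own symbol were not analysed here. Counts of listed genes at an unadjusted p under 0.05 are given without the share of all probe sets at that threshold.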

Additional observations from a re-analysis of the deposited data

Results flagged for a closer look

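The IL-10 effect on *Cxcl11* differed between genotypes by -5.24 on the log2 scale (*miR-155*-/- minus WT, adjusted p = 0.0292, limma), with falls in both *miR-155*-/- mice (-6.29 and -5.42) against -0.31 and -0.92 in the WT mice. The WT(LPS) values, 2.81 and 3.56, were at or near the background level, and the call was lost when any 1 of the 8 arrays was left out.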

How the results depend on the processing

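With the mouse as a fixed replicate block, 1 of the 5 chemokine probe sets (*Cxcl10*) was called for IL-10 in WT BMDM, against 0. The same count of 1 came with a filter at a mean of 6, an intensity trend with robust fitting, and arrays centred on their medians. For *miR-155*-/-(LPS + IL-10) against WT(LPS + IL-10) the count was 1, against 0, with the filter and with the trend. For the difference of the IL-10 effect it was 0, against 1, with no replicate block, with the replicate number as a fixed replicate block, with the filter (which leaves *Cxcl11* untested), without both arrays of WT mouse 1, and with any 1 array left out. With 1 array left out, 1 to 4 probe sets were called in *miR-155*-/-(LPS) against WT(LPS), 2 to 4 for IL-10 in *miR-155*-/- BMDM, and 0 for IL-10 in WT. For IL-10 in *miR-155*-/- BMDM the fixed mouse block and the trend each gave 4 calls, against 3, and the other fits with another replicate block or none gave 3.

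The sign turned only at the floor. The second *Cxcl11* probe set for IL-10 in WT was at 0.0575 without both arrays of WT mouse 1 and at -0.0964 to 0.0387 with 1 array left out. The second *Cxcl9* probe set in *miR-155*-/-(LPS + IL-10) against WT(LPS + IL-10) was at 0.0512 and -0.347 to 0.113. With the median of the sensory receptor probe sets as background, 37 of 40 values lay above it, and 22 with the 95th percentile. Of 420 single values under alternatives, 385 kept direction and call, 10 gained a call, 19 lost it and 6 changed sign. Over all probe sets the calls for *miR-155*-/-(LPS) against WT(LPS), 659, ran from 53 without *miR-155*-/-(LPS) replicate 1 to 1570 with the trend, those for IL-10 in *miR-155*-/- BMDM, 1206, from 112 to 3183, and those for IL-10 in WT, 14, from 0 to 327. The fits of only the arrays compared and without WT mouse 1 took the within-mouse correlation from all 8 arrays.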
